A study of Homo sapiens with 18 samples.

Results

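The gene described here is MALT1, which encodes a signalling protein with a caspase-like protease domain, known as a paracaspase. It was taken by its symbol, and 1 probe set of the array carries that symbol, so MALT1 is 1 of 14884 genes with a symbol. RNA was measured on 18 Affymetrix arrays, with 3 cultures and 3 arrays for each of 6 HEK (human embryonic kidney) lines. Per the labels, the wild-type group holds the parental HEK line and the CRISPR control lines N4 and N8. The other group holds A10, A30 and B21, which carry the label ATXN1L-KO. Cas9 editing, puromycin selection and isolation of single colonies are given in the labels, so each edited or control line is a clone. The labels give that treatment text for the parental samples too. All lines grew in DMEM with fetal bovine serum, and no stimulus of MALT1 signalling is named. Which part of ATXN1L was edited is not stated there, and the ATXN1L signal was not lower in the KO-labelled lines, so it checks no label. MALT1 was chosen by its measured difference between the genotypes: earlier results of these data placed it among the genes with the smallest p for that contrast. The difference is therefore a description with no test.

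MALT1 works as a scaffold and as a protease. A coiled-coil protein with a CARD domain nucleates filaments of BCL10, to which MALT1 is bound, and together they are called the CBM complex. MALT1 then recruits the ubiquitin ligase TRAF6, which leads through the TAK1 and IKK kinases to the transcription factor NF-kB, while its protease domain cleaves inhibitors and RNA-binding proteins such as TNFAIP3, CYLD and ZC3H12A. The protein is best known from B and T cells, from its fusion to BIRC3 in lymphoma of mucosa-associated lymphoid tissue and from inherited immunodeficiency. The array measures only its RNA, so neither the protein nor its protease activity was seen here.

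The RefSeq promoter window of MALT1 is shown because CIC, named in the study title, is a repressor with ATXN1L as its partner and has a known binding motif that can be looked for. The window runs from 250 bases before the start of the gene to 50 bases after it, at chr18:58671215-58671514 of GRCh38.p14, plus strand. The array files name no build, and the place of the probe set within the gene was not used here. Capitals mark the GC box, GGGCGG on either strand.
MALT1: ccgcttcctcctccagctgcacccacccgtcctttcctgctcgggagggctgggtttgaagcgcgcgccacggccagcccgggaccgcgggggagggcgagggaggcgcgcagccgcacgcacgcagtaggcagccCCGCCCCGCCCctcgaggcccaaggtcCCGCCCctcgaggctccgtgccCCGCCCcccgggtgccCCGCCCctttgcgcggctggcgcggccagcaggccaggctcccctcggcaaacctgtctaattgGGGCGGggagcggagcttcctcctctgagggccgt
The GC box was found at 6 places, 2 of which overlap by 1 base, and 45.0% of the 35116 RefSeq windows of this length held it. Bases G and C made up 76.0% of the window, against a median of 58.7% over all windows. The CIC octamers TGAATGAA, TGAATGGA, TCAATGAA and TCAATGGA, searched on both strands, were not among these letters, as in all but 3.77% of windows. Neither were the AP-1 motif TGANTCA (in 7.71% of windows), the ETS motif CCGGAAGT (4.14%) or the NF-kB motif (11.3%). The window of the antisense gene MALT1-AS1, which overlaps the start of MALT1, held no CIC octamer either. No probe set carries the symbol of MALT1-AS1, and the strand read by the MALT1 probe set was not used here.

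MALT1 RNA was lowest in the parental cells, at 8.08, 8.08 and 8.17 in replicates 1, 2 and 3 (log2 signal of the probe set). N4 gave 8.28, 8.12 and 8.11, which overlap the parental values. N8 gave 8.38, 8.44 and 8.47, so each N8 array lay above every array of the other wild-type lines. Among the KO-labelled lines, A10 gave 8.39, 8.84 and 8.88. A30 gave 8.72, 8.65 and 8.81. B21 gave 8.77, 8.87 and 8.88. Replicate 1 of A10 was thus the only KO-labelled array inside the wild-type range, between the values of N8. The other 8 KO-labelled arrays lay above all 9 wild-type arrays, whose highest value was 8.47.

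**Figure D1:**
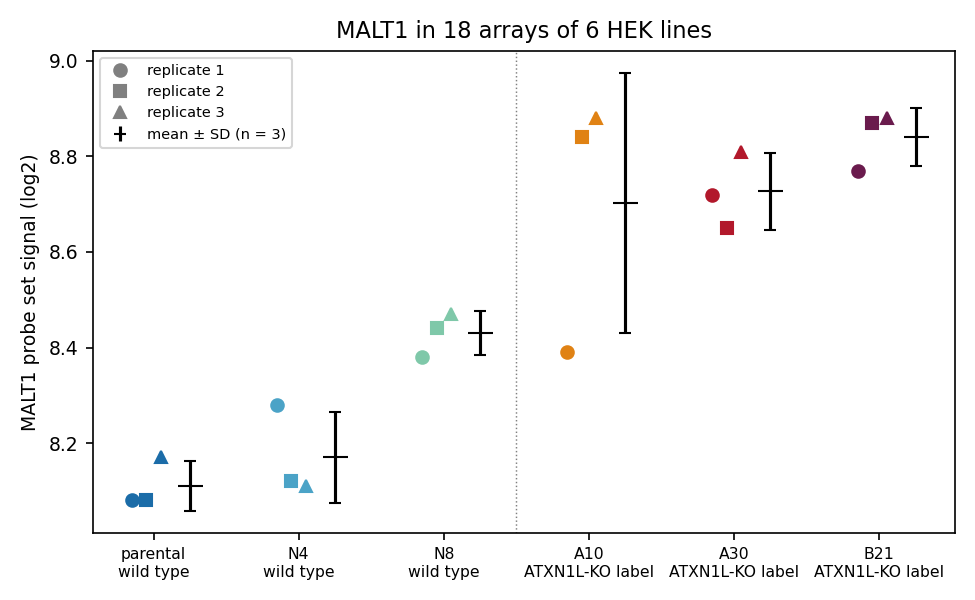
MALT1 probe set signal (log2, vertical axis) in each array, by line (horizontal axis), with marker shape for the replicate number and black bars for the line mean ± SD (n = 3 arrays). N8 sits at 8.43, above the parental cells at 8.11 and N4 at 8.17, and A10 has 1 array at 8.39 and 2 at 8.84 and 8.88.

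Line means rose in the order parental (8.11 ± 0.05, SD, n = 3), N4 (8.17 ± 0.10), N8 (8.43 ± 0.05), A10 (8.70 ± 0.27), A30 (8.73 ± 0.08) and B21 (8.84 ± 0.06). The mean of the 3 KO-labelled lines was 8.76 ± 0.07 (SD, n = 3 lines) and that of the wild-type lines 8.24 ± 0.17. The difference of 0.52 ± 0.10 (limma SE on line means) corresponds to 1.43-fold. Against the wild-type lines A10 differed by 0.47, A30 by 0.49 and B21 by 0.60, each with an SE of 0.08 over arrays, and these values share the wild-type arrays. Among all 9686 tested genes, 7.37% had all 3 KO-labelled line means above all 3 wild-type means, and 0.299% had all KO-labelled arrays above all wild-type arrays (0.764% when replicate 1 of A10 was left out). MALT1 belongs to the first group but not to the second, because of replicate 1 of A10, and these shares are background only. Without that array the difference between the genotypes was 0.57, and that of A10 from the wild-type lines 0.62. In bulk RNA of this kind a change in RNA per cell and a change in the share of cells that make it cannot be told apart.

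Replicate 1 of A10 stood apart from its own line over all genes. With the mean over arrays removed, it correlated at r = 0.01 and 0.14 with the other A10 arrays and at 0.39 with replicate 1 of N4, across genes, which are not independent replicates. The first replicates of the parental cells and N4 were also closer to each other (0.41) than to their own lines (at most 0.37). In the other 17 arrays the lowest correlation with an array of the same line was 0.01 in A10 replicate 2, 0.14 in A10 replicate 3 and 0.34 or more elsewhere. MALT1 varied within lines with a pooled SD of 0.13, close to the median of 0.12 over all tested genes, and of 0.07 when that array was left out. Where leaving it out changed the call of a gene named below in A10, the value without it is given too.

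Differences among lines of a genotype are not part of the genotype contrast and were tested with limma over all 9686 genes, on 18 arrays. The choice of MALT1 by a small p favoured genes with close line means, so these tests are not wholly independent of the choice. N8 rose above the parental cells by 0.32 ± 0.10 (SE), or 1.25-fold (limma, adjusted p = 0.0433), in a comparison that called 14.7% of all tested genes (7.67% higher and 7.03% lower). The call ended when any of 11 arrays was left out: all 3 parental and all 3 N8 arrays, N4 replicates 2 and 3, A30 replicate 1 and B21 replicates 2 and 3. The difference was then 0.30 to 0.35, with an adjusted p of 0.0518 to 0.114. Without replicate 1 of A10 the adjusted p was 0.00424. N8 exceeded N4 by 0.26 ± 0.10 (adjusted p = 0.101, and 0.0150 without replicate 1 of A10), where 13.9% of genes were called. N4 and the parental cells differed by 0.06 ± 0.10 (adjusted p = 0.855), where 0.547% of genes were called. Over the 3 wild-type lines together, limma's F test gave an adjusted p of 0.0696, and of 0.00654 without replicate 1 of A10, with 16.1% of genes called over all arrays. With the difference of replicate 1 as a term in the fit the adjusted p was 0.0405.

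MALT1 did not pass in any comparison among the KO-labelled lines. B21 differed from A10 by 0.14 ± 0.10 (limma, adjusted p = 0.425), from A30 by 0.11 ± 0.10 (0.558), and A30 from A10 by 0.02 ± 0.10 (0.903). These comparisons called 13.1%, 9.8% and 21.9% of all tested genes. The F test among the 3 lines gave an adjusted p of 0.525, against 25.8% of genes called. Without replicate 1 of A10 the order changed: A30 then differed from A10 by −0.13 (adjusted p = 0.238) and B21 from A10 by −0.02 (0.903). A30 also lay below A10 without replicate 3 of A30 (−0.018). No pair of neighbouring lines in the order of means passed the test within a genotype over all arrays. N8 against N4 passed without replicate 1 of A10, in replicates 2 and 3 alone (0.34, 0.0126) and with the neighbouring genes subtracted as described below (0.32, 0.0170). N8 and A10 lie on either side of the genotype contrast, and their arrays overlapped only through replicate 1 of A10.

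Many genes (18.6% called) separated the first replicates from the others. In MALT1 the first replicates differed by −0.09 ± 0.06 (limma, adjusted p = 0.299). Within replicate 1 the KO-labelled lines averaged 8.63 and the wild-type lines 8.25, a difference of 0.38. It was 0.57 within replicate 2 and 0.61 within replicate 3. In replicate 1 the highest wild-type value, 8.38, and the lowest KO-labelled value, 8.39, nearly met. The test of whether the genotype difference itself was smaller in replicate 1 gave −0.21 ± 0.11 (limma, adjusted p = 0.654, with 0.0103% of genes called). It was −0.07 without replicate 1 of A10.

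MALT1 lies on the long arm of chromosome 18, and the genes beside it were higher in the KO-labelled lines as well. Neighbours were taken by position alone, as the 10 tested genes on each side in RefSeq order. Against the wild-type lines, 18 of these 20 neighbours were above 0 in A30, with a median of 0.32, and 18 in B21, with a median of 0.29. In A10, 16 were above 0, with a median of 0.12. MALT1 itself exceeded those medians in each line. With limma 11 neighbours rose in A30 and 10 in B21, and 0 fell, where 29.3% of all tested genes were called in A30 and 16% in B21 (12.9% and 8.82% higher, 16.3% and 7.2% lower). Without replicate 1 of A10 the counts were 12 and 10. In A10 2 neighbours rose, NARS1 and PMAIP1, where 8.4% of all genes were called (3.84% higher and 4.56% lower). That count was 5 without replicate 1 of A10 (25%, against 4.97% of all genes called higher). It was 0 without replicate 2 or 3 of A10. It was 1 without replicates 1 or 2 of the parental cells or replicates 2 or 3 of N4. The same held without replicate 2 of N8 or any single array of A30 or B21.

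NARS1, which encodes the asparagine tRNA synthetase of the cytosol, is the nearest tested gene before MALT1. It differed by 0.29 ± 0.09 in A10 (limma, adjusted p = 0.0468, and 0.42 with 0.00285 without replicate 1), 0.42 ± 0.09 in A30 (0.00134) and 0.38 ± 0.09 in B21 (0.00593). Its level was 10.84 to 11.20 over the wild-type arrays and 11.02 to 11.43 in A10, which overlapped them. It was 11.37 to 11.46 in A30 and 11.32 to 11.42 in B21. FECH, the ferrochelatase of haem synthesis, rose in B21 (0.23, adjusted p = 0.0294) and was at 0.05 in A30 and 0.21 in A10, where it rose without replicate 1 (0.30, 0.00915). WDR7 and TXNL1, a thioredoxin-like gene, rose in A30 (0.30 and 0.44) and B21 (0.30 and 0.33) and were at 0.05 and 0.20 in A10. The transcription factor gene ONECUT2 passed in no line, at 0.05, 0.14 and −0.06.

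On the other side, ZNF532, a zinc finger gene, and SEC11C, a signal peptidase subunit gene, passed in no KO-labelled line over all arrays. In the order A10, A30 and B21, ZNF532 differed by 0.34, −0.05 and 0.32, and SEC11C by 0.46, 0.43 and 0.17. Without replicate 1 of A10 both rose in A10, ZNF532 by 0.49 (0.0202) and SEC11C by 0.63 (0.0251). GRP, which encodes gastrin-releasing peptide, rose in A30 by 0.33 (adjusted p = 0.0381) and was at −0.04 in A10 and 0.25 in B21. CCBE1, a secreted matrix protein gene needed for lymphatic vessels, rose by 1.24 ± 0.09 in A30 (7.5e-08) and 1.46 ± 0.09 in B21 (2.76e-08), and was at 0.22 in A10. Its wild-type means were uneven, at 7.28 in parental cells, 6.84 in N4 and 6.11 in N8. Against the parental cells alone CCBE1 was at −0.31 in A10, 0.70 in A30 and 0.92 in B21. PMAIP1, the pro-apoptotic gene also called NOXA, rose in A10 (0.38, and 0.44 without replicate 1) and A30 (0.43) and was at 0.08 in B21. BCL2, the anti-apoptotic gene of follicular lymphoma, lies 9 tested genes beyond MALT1 and passed in no line, at 0.21, 0.26 and 0.14.

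The shift reached beyond the neighbours in A30 and B21. Of the 143 other tested genes of chromosome 18, 111 were above 0 in A30 (77.6%, against 51.2% of all tested genes) and 113 in B21 (79.0%, against 51.4%), with medians of 0.21 and 0.17. These were the highest medians of the 23 chromosomes with at least 50 tested genes. Chromosome 21 came next, at 0.17 in A30 and 0.14 in B21, and it was highest in A10, at 0.18. Between the genotypes its median was 0.15 and that of chromosome 18 was 0.12. In A30 63 of the 143 chromosome 18 genes rose (44.1%, against 12.9% of all genes) and 10 fell. In B21 55 rose (38.5%, against 8.82%) and 5 fell, and the count of rises was 34 without replicate 2 and 29 without replicate 3 of B21. In A10 the chromosome median was −0.01, with 69 genes above 0 (48.3%, against 48.2%). There 4 rose (2.80%, against 3.84%) and 6 fell. Without replicate 1 the chromosome median in A10 was also −0.01 and that of the 20 neighbours 0.12. Without replicate 1 of A10, 8 genes of the chromosome rose there (5.59%, against 4.97% of all genes) and 14 fell (9.79%, against 6.82%). The rises in A10 were 0 without its replicate 2 or 3. They were 2 without any 1 of replicates 1 and 2 of the parental cells and replicates 2 and 3 of N4. The count was also 2 without replicate 2 of N8, or replicate 1 of A30 or of B21. In A10 the run of 20 genes from C18orf54 to DSEL, MALT1 included, had a median of 0.14 with 16 genes above 0, while the other 6 runs of 20 genes had medians of −0.07 to 0.05 and the last 4 genes one of 0.10.

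**Figure D2:**
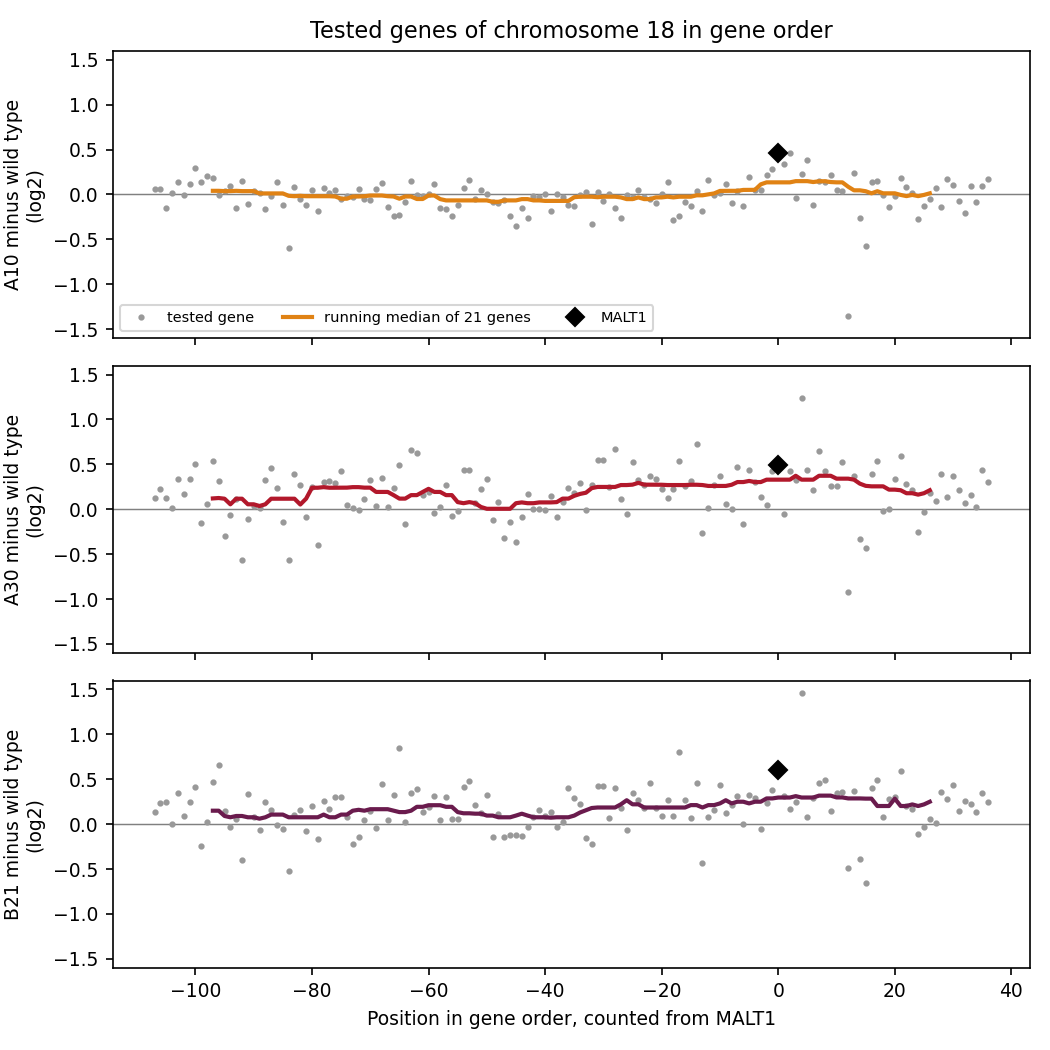
Difference of each KO-labelled line from the wild-type lines (log2, vertical axis) for tested genes of chromosome 18 in RefSeq order (horizontal axis, genes counted from MALT1). Grey points are genes, the coloured line is the running median of 21 genes and the diamond is MALT1. The running median lies above 0 around MALT1 in A30 and B21 and near 0 over most of the chromosome in A10.

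MALT1 was higher in N8 while most of its chromosome was not. Against the parental cells, the chromosome median was −0.07 in N8, with 51 of 143 genes above 0 (35.7%, against 50.6% of all genes). On the chromosome 5 genes (3.50%) were called higher, against 7.67% of all genes, and 19 lower, against 7.03%, and the 20 neighbours had a median of 0.01. ZNF532 and WDR7 rose in N8 beside MALT1, by 0.78 ± 0.15 (limma, adjusted p = 0.00265) and 0.26 ± 0.07 (0.0204), and CCBE1 fell by 1.17 ± 0.11 (6.39e-06). In N4 the 20 neighbours had a median of 0.08 and the chromosome of 0.07, with 105 of 143 genes above 0 (73.4%, against 45.6% of all genes). On the chromosome 1 gene was called higher and 1 lower, where 0.547% of all genes were called. TCF4 was the neighbour called (0.50, limma, adjusted p = 0.0354).

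To set MALT1 beside its neighbours in each array, the median deviation of the 20 neighbours from their wild-type means was subtracted, a step chosen after the data were seen. The remaining MALT1 level averaged 8.12 in parental cells, 8.13 for N4 and 8.45 for N8. For A10 it was 8.59, for A30 8.42 and for B21 8.56. The genotype difference became 0.29 ± 0.11, down from 0.52, and A30 no longer lay above N8. By array, the values were 8.35, 8.70 and 8.72 in A10, 8.35, 8.46 and 8.46 in A30, 8.53, 8.62 and 8.52 in B21, and 8.47, 8.42 and 8.46 in N8. Against the wild-type mean A10 then differed by 0.35, A30 by 0.19 and B21 by 0.32. The rise of N8 over the parental cells was 0.33 ± 0.08 on this scale (limma, adjusted p = 0.0128). DNA copy number was not measured in these files, and its part in the shared shift was not tested.

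**Figure D3:**
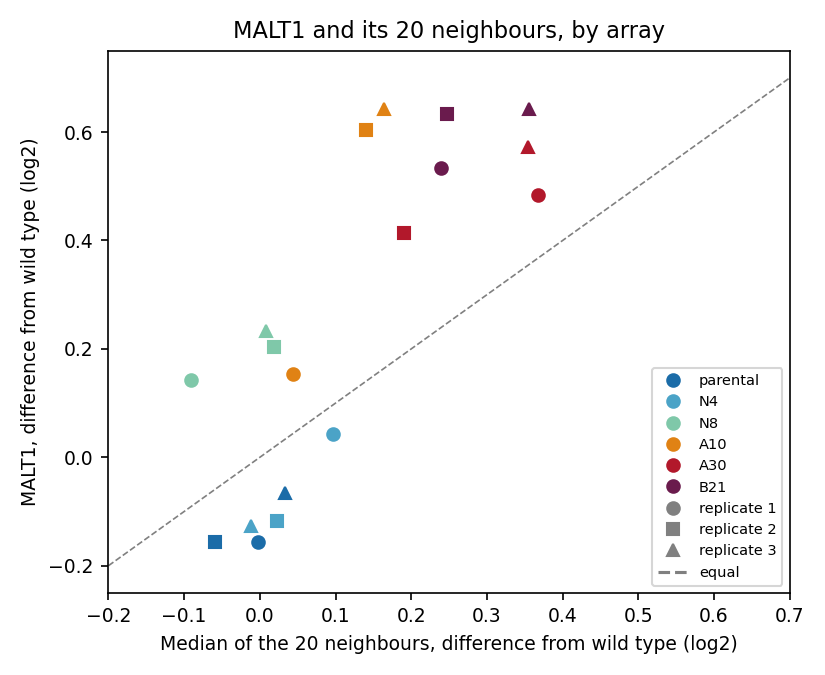
MALT1 (vertical axis) against the median of its 20 chromosomal neighbours (horizontal axis), both as the difference from the wild-type mean (log2), 1 point for each array, with colours for lines, shapes for replicates and a dashed line of equality. All KO-labelled arrays and the 3 N8 arrays lie above the line, with the neighbours at 0.19 to 0.37 in A30, 0.24 to 0.36 in B21 and 0.04 to 0.16 in A10.

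BCL10, the direct binding partner of MALT1, was the member of the CBM complex list analysed here beside it. Its level was 7.13 to 7.36 over the 9 wild-type arrays, 7.19, 7.46 and 7.25 in A10, 7.55, 7.57 and 7.48 in A30, and 7.41, 7.59 and 7.69 in B21. The lowest B21 array, at 7.41, lay close to the highest wild-type array, at 7.36, and the A10 arrays overlapped the wild-type range. BCL10 rose by 0.27 ± 0.07 in A30 (limma, adjusted p = 0.00802) and 0.30 ± 0.07 in B21 (0.00780), and was at 0.04 ± 0.07 in A10 (0.815). On line means the difference between genotypes was 0.20 ± 0.09 (adjusted p = 0.529).

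The pathway lists, the CBM complex included, held 42 tested genes, of 53 with a symbol and 96 listed. On line means limma called 0 of the 42 between the genotypes, as for 0% of all 9686 genes. IER3 and JUND had an unadjusted p under 0.05, as did 937 of all genes. With the line as a random block over arrays the count was also 0. The median difference was 0.03 over the 42 genes and −0.0022 over all tested genes. In single lines 4 of 42 were called in A10 (9.52%), 15 in A30 (35.7%) and 9 in B21 (21.4%), near the 8.4%, 29.3% and 16% of all tested genes. In N8 against the parental cells 9 were called (21.4%, against 14.7%) and in N4 0 (0.547% of all genes), with 7 of the 42 at an unadjusted p under 0.05 in N4, as for 13.2% of all tested genes. The A10 count was 6 without its replicate 1, where 4.97% of all genes were called higher and 6.82% lower. It was 0 without replicate 2 of A10, and 1 without replicate 3 of A10 or replicate 2 of N8. It was 2 without replicates 1 or 2 of the parental cells, replicates 2 or 3 of N4 or replicate 3 of N8. Shares of all genes are not given here for the fits without other arrays. The N8 count was 4 or 5 without any of the 3 parental arrays or replicates 2 or 3 of N8. In the gene lists and markers below, A10, A30 and B21 were set against all 3 wild-type lines, N8 included. N8 was set against the parental cells alone, so its values do not rank against those of the KO-labelled lines.

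Among the genes that feed antigen receptor and protein kinase C signals into the complex, 3 of 12 were tested. LYN, a Src-family kinase gene, rose in A30 by 0.46 ± 0.08 (limma, adjusted p = 0.000247), in B21 by 0.32 ± 0.08 (0.00848) and in N8 by 0.30 (0.0371), and was at −0.25 in A10 (0.0505). SYK, a kinase of B-cell receptor signalling, fell by 0.39 ± 0.08 in A30 (0.00121). ZAP70, its counterpart in T cells, passed in no line.

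Of 17 genes that carry the signal from MALT1 to IKK, 10 were tested, and 5 were above 0 between the genotypes. TAB3, an adaptor of the TAK1 kinase, rose in A30 by 0.28 ± 0.06 (limma, adjusted p = 0.00372) and was at 0.07 in A10 and 0.19 in B21. TAB1, another TAK1 adaptor, rose in A10 by 0.27 ± 0.08 (0.0362, and 0.37 without replicate 1). SHARPIN, a subunit of the linear ubiquitin ligase, fell in A10 by 0.25 ± 0.06 (0.0146). UBE2V1, of the ubiquitin-conjugating pair used by TRAF6, passed in no line. In A30 the gene of TAK1 itself, MAP3K7, fell by 0.19 ± 0.05 (0.00527). In N8, UBE2N, the partner of UBE2V1, fell by 0.45 (0.0130), and RBCK1, a linear ubiquitin ligase subunit gene that is also a MALT1 substrate, rose by 0.51 (0.000429).

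Of 17 genes whose proteins MALT1 or its fusion to BIRC3 is known to cleave, 12 were tested, with 6 above 0 between the genotypes. MAP3K14, the kinase NIK of the non-canonical NF-kB pathway, was at 5.94 to 6.32 over the wild-type arrays and 5.98 to 6.22 in A10. It was at 6.40 to 6.61 in A30 and 6.49 to 6.72 in B21. It rose by 0.37 ± 0.07 in A30 (limma, adjusted p = 0.000707) and 0.47 ± 0.07 in B21 (0.000229). RC3H2, a roquin gene that represses mRNAs, fell in A30 by 0.28 ± 0.05 (0.000365) and B21 by 0.21 ± 0.05 (0.00758) and was at −0.02 in A10. Beside these and BCL10, the substrates called were CYLD and TAB3 in A30 and TNS3 in B21, all higher, with TNS3 and RBCK1 higher in N8. TNFAIP3 has no probe set with its symbol here.

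Among the NF-kB and IkB genes 6 of 9 were tested. NFKB1 fell in A30 by 0.48 ± 0.07 (limma, adjusted p = 0.000137) and was at −0.02 in A10 and 0.10 in B21. RELA and BCL3, an IkB-like co-activator gene, rose in A30 by 0.21 and 0.26 (0.0467 and 0.0272) and were at 0.20 and 0.25 in B21 (0.0843 and 0.0553). RELB passed in no line. NFKB2 fell in A10 by 0.32 ± 0.09 (0.0425) and rose in N8 by 0.42 ± 0.11 (0.0206). NFKBIA is not analysed here, for want of a probe set with its symbol.

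Of 25 NF-kB target genes 7 were tested, and the median difference between the genotypes was 0.08. IER3, an early-response gene, was at 7.08 to 7.86 over the wild-type arrays and 7.29, 7.78 and 7.93 in A10, with replicate 1 lowest. It was at 8.05 to 8.28 in A30 and 8.34 to 8.82 in B21. It rose by 0.73 ± 0.13 in A30 (limma, adjusted p = 0.000344) and 1.18 ± 0.13 in B21 (8.7e-06), and was at 0.21 ± 0.13 in A10, where it rose without replicate 1 (0.40, 0.0458). IER3 is also driven by MAP kinase signalling, and it fell by 0.32 in replicate 1 of the lines (0.00129). CCL2, a chemokine gene, rose in A30 by 1.57 ± 0.25 over the wild-type lines (0.000206) and in N8 by 1.82 ± 0.31 over the parental cells (0.00116). Its line means were 6.74 in A30 and 6.55 in N8. The parental, N4 and A10 arrays of CCL2 reached at most 5.09, 4.84 and 5.42, all below the filter value of 5.6. It was thus tested only through arrays of N8, A30 and B21. ICAM1, an adhesion molecule gene, passed in no line, and CD83 rose in N8 by 0.24 (0.0452). Of the other targets with a symbol, 7, among them CXCL8 and TNF, were below the filter.

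JNK and AP-1 genes, 8 tested of 10, went both ways. JUND fell in A30 by 0.45 ± 0.08, in B21 by 0.44 ± 0.08 and in N8 by 0.41 ± 0.10 (limma, adjusted p = 0.000547, 0.00165 and 0.0121). In A10 it was at −0.22, and it fell by 0.35 without replicate 1 (0.00678). JUN fell in A10 by 0.35 ± 0.10 (0.0336), or by 0.56 without replicate 1 (4.56e-05), and FOSL1 rose in B21 by 0.41 ± 0.12 (0.0222). JUNB rose in A30 by 0.48 ± 0.06 and in B21 by 0.29 ± 0.06 (2.7e-05 and 0.00391). MAP2K4, a kinase of JNK, and FOS passed in no line, and FOS fell by 0.53 in replicate 1 of the lines (0.00192). CFLAR, which encodes a catalytically inactive relative of caspase 8, was the tested gene of the caspase list and passed in no line.

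**Figure D4:**
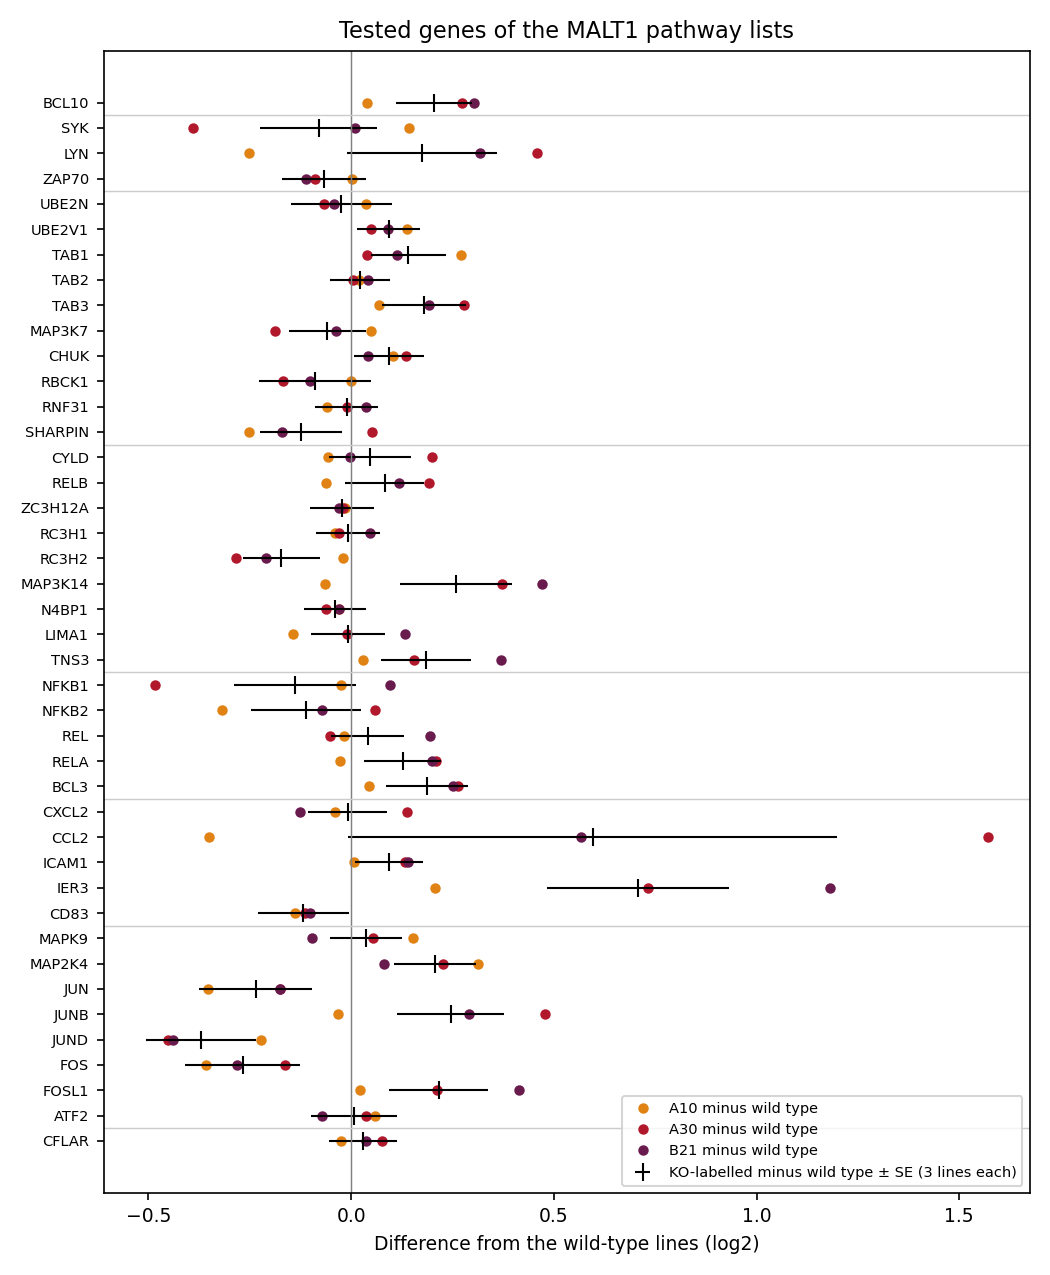
Difference from the wild-type lines (log2, horizontal axis) for the 42 tested pathway genes (vertical axis), in list order from BCL10 to CFLAR with grey lines between lists. Coloured points are A10, A30 and B21, and black bars are the genotype difference ± SE over 3 lines a group. BCL10, LYN, MAP3K14 and IER3 have A30 and B21 to the right of A10.

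MALT1 is best known from lymphocytes, so leukocyte markers were looked at too. Of 16 listed, 6 had a symbol and 3 passed the filter: CD68, LAPTM5 and SPI1. Their mean level over 3 arrays was lowest in the parental cells (5.94), followed by N4 (6.07), A10 (6.11), A30 (6.20), N8 (6.28) and B21 (6.30). LAPTM5 and SPI1 lay near the filter value of 5.6, with line means of 5.28 to 5.62 and 5.59 to 5.93. Those of CD68 ran from 6.82 to 7.59. CD68, a lysosomal protein gene of macrophages and other cells, rose in N8 by 0.77 ± 0.11 over the parental cells (limma, adjusted p = 0.000406). It rose in B21 by 0.30 ± 0.09 over the wild-type lines (0.0384). The line means of CD68 were 7.59 in N8 and 7.48 in B21. CD2, CD14 and LCP1 were below the filter in their probe sets, and PTPRC and CD3E are not analysed here. The part of these markers in the MALT1 levels was not tested. Of 13 markers of HEK cells, 8 had a symbol and 7 passed the filter, PAX2, LHX1, SIX2, EMX2, KRT8, KRT18 and VIM, while PAX8 was below it. SIX2 fell in A30 by 0.28 and B21 by 0.24 (limma, adjusted p = 0.00867 and 0.0377). EMX2 fell in A10 by 0.26 (0.0419), and was at −0.24 without replicate 1 (0.101). LHX1 was at 0.20 in A10 (0.0698), and rose without replicate 1 (0.24, 0.0416). KRT18 rose in B21 by 0.71 (0.00352) and VIM in N8 by 0.23 (0.0248). PAX2 and KRT8 passed in no line. Called were 14.3% of the 7 in A10, A30 and N8 and 28.6% in B21 (8.4%, 29.3%, 14.7% and 16% of all genes).

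Over the 6 line means, the gene patterns most like that of MALT1 included ATXN1L itself (Pearson r = 0.977) and ETV5 (0.977), an ETS transcription factor gene that CIC represses. The lines share their clonal history and the genotype label, 9685 genes were compared, and 117 of them had r above 0.9, so these values are descriptions. The others of the 6 highest were MIR3619 (0.996), TRIM74 (0.984), BAIAP2 (0.976), an actin regulator gene, and WTIP (0.975). MIR3619 and TRIM74 ranged by 0.23 and 0.28 over line means, little more than the SD within single lines, which reached 0.20 and 0.26. The 4 lowest were TMT1A (−0.990), HS6ST3 (−0.975), a heparan sulfate sulfotransferase gene, CDK18 (−0.973) and EIF5AL1 (−0.973). CDK18 and EIF5AL1 ranged by 0.21 and 0.24, with SDs within lines of up to 0.21 and 0.31, and EIF5AL1 had r = −0.26 over the 18 arrays. In HS6ST3 the N8 and KO-labelled arrays, at 4.35 to 5.47, all lay below the filter value, so it was tested through the parental cells and N4.

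ATXN1L followed the same order of line means as MALT1, with Spearman's rho of 1. In replicates 1, 2 and 3 it was at 7.05, 7.13 and 7.15 in parental cells, at 7.10, 7.16 and 7.24 for N4 and at 7.18, 7.29 and 7.16 for N8. A10 gave 7.20, 7.44 and 7.46, A30 gave 7.43, 7.31 and 7.42, and B21 gave 7.43, 7.41 and 7.61. As with MALT1, replicate 1 of A10 was the KO-labelled array inside the wild-type range. ETV5 was at 5.47, 5.97 and 6.10 in A10, and its wild-type arrays ran from 4.62 to 5.54, all below the filter value of 5.6. It was thus tested only through KO-labelled arrays, on the contrast by which MALT1 was chosen, so their likeness is a description only. Over the 18 arrays r with MALT1 was 0.904 for ATXN1L and 0.895 for ETV5. Within lines, with line means removed, it was 0.615 and 0.546, and without replicate 1 of A10 it was 0.147 and 0.408. HS6ST3 likewise went from −0.786 to −0.286 within lines.

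**Figure D5:**
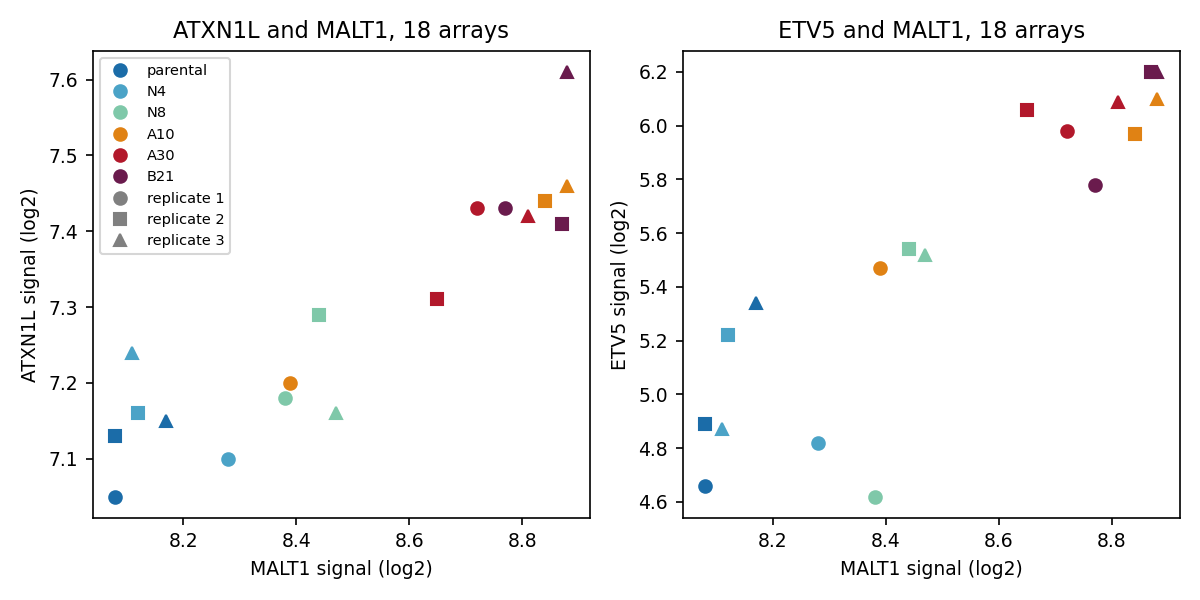
ATXN1L (left) and ETV5 (right) signal against MALT1 signal (all log2), 1 point for each of 18 arrays, with colours for lines and shapes for replicates. Replicate 1 of A10 (MALT1 8.39) lies at 7.20 for ATXN1L and 5.47 for ETV5, inside the wild-type range in both panels.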

How the data were processed

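RNA from 18 cultures was hybridised to Affymetrix arrays after extraction with the Qiagen miRNeasy kit, per the labels. The deposited values are log2 signals, 1 per probe set and array. They were made with Affymetrix Expression Console, per the submitters' processing notes, whose version and settings the sources used here do not name. That the scale is log2 fits their range (0.57 to 14.84), and array medians were 5.09 to 5.18. They were used as deposited, with a pseudocount of 0. Precision is limited by the number of arrays.

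Of 53617 probe sets, 16098 had 1 gene symbol and 37519 had none. Where a gene had several probe sets (779 genes), the one of highest mean was used. The filter asked for 3 or more arrays above 5.6 (the 40th percentile over named probe sets), which left 9686 genes. Lines were compared with limma 3.58.1 in R 4.3.3, on line means for genotype and on 18 arrays otherwise, two-sided, with Benjamini-Hochberg adjustment over all tested genes and calls at 0.05. Array-level tests rest on the spread among cultures, so they say nothing of variation among clones. With 3 lines against 3, an exact permutation test cannot go below 0.1.

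MALT1, the gene lists and the tests were chosen with earlier results of these data known. Genes named are MALT1, measured CBM genes, the 4 smallest genotype p values in each list (fewer where fewer were tested), 5 neighbours on each side, and the 6 most and 4 least correlated genes. MAP3K7, UBE2N, RBCK1, JUN, FOSL1, NFKB2, BCL2, CYLD, TNS3, TCF4, C18orf54, DSEL, ANKRD12 and markers, and genes only named as not measured, were added after values were seen. Neighbour order and sequences came from RefSeq (GRCh38.p14). The fits were tested on simulated data. Alternatives covered filter, normalisation, probe set, variance model, replicate terms, reference and left-out arrays and lines. Figures used matplotlib 3.10.9, pandas 2.3.3 and numpy 2.4.6.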

Additional observations from a re-analysis of the deposited data

How the results depend on the processing

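The MALT1 genotype difference kept its direction in all 32 alternatives and lay between 0.49 and 0.57 without single arrays, and the comparisons of B21 with A30 and of replicate 1 kept direction and side of the threshold in all of theirs (0.08 to 0.16 and −0.14 to −0.01 without single arrays). With the neighbours subtracted (chosen after seeing the data) the genotype difference was 0.29, A30 against wild type 0.19 and B21 0.32. On that scale N8 against N4 was 0.32 (adjusted p = 0.0170), the wild-type F test passed (range 0.33, 0.0139), and A30 against A10 (−0.16) and B21 against A10 (−0.028) turned negative. The N8 call against the parental cells ended without the filter (0.32, 0.0828) and with arrays centred on their medians (0.30, 0.0597), and its value ran from 0.30 to 0.35 without single arrays. In replicates 2 and 3 alone, N4 against parental was −0.01, A30 against A10 −0.13, A10 against wild type 0.63, and N8 against N4 passed at 0.34 (0.0126). The wild-type F test also passed with the robust trend prior (0.32, 0.0448), the replicate 1 term (0.32, 0.0405) and replicates 2 and 3 alone (0.34, 0.0143). Without single arrays the values ran from 0.005 to 0.09 for N4 against parental, 0.23 to 0.32 for N8 against N4, 0.38 to 0.62, 0.45 to 0.53 and 0.58 to 0.64 for A10, A30 and B21 against wild type, −0.13 to 0.11 for A30 against A10, −0.02 to 0.23 for B21 against A10, 0.12 to 0.23 among KO-labelled and 0.30 to 0.35 among wild-type lines. The replicate number was also used as a block. Deviations of same-numbered arrays from their line means correlated at 0.17 to 0.51 for replicate 1, 0.09 to 0.38 for replicate 2 and −0.00 to 0.25 for replicate 3. Since not every pair passed 0.1, the numbers were not taken to pair the samples, though the first replicates deviated together. With the replicate block the wild-type F test passed (0.32, adjusted p = 0.0441), 9 pathway genes, 5 neighbours and 8 chromosome 18 genes were called in A10, and no other MALT1 call changed. Called in A10 were 1 pathway gene, 1 neighbour and 2 chromosome 18 genes without the filter, 8, 5 and 8 with the replicate 1 term, 7, 8 and 14 in replicates 2 and 3 alone, and 0, 1 and 2 with the parental cells alone as reference. Without single arrays those counts ran from 0 to 6, 0 to 5 and 0 to 8, the pathway count in N8 from 4 to 12 and the chromosome 18 count in B21 from 29 to 58. With the replicate 1 term 14 pathway genes were called in B21. The cause of these changes was not tested. Shares of all tested genes called in the same settings are not given here. The counts are therefore not read as results about the pathway genes, the neighbours or chromosome 18.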
